A study of Saccharomyces cerevisiae with 67 samples.

Results

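The genes described here are the 10 members of yeast glycogen metabolism listed as GLG1, GLG2, GSY1, GSY2, GLC3, GPH1, GDB1, GAC1, PIG1 and PIG2, out of 6002 nuclear protein-coding genes. They were chosen by symbol, and all 10 symbols were found in the sacCer3 (R64) annotation. For each gene, the position of regions carrying histone H4 acetylated at lysine 12 (H4K12ac), measured by ChIP-seq, was read from the list of regions that the authors merged over their H4K12ac samples. Cells of strain BY4741 were grown in rich medium (YPD) to exponential phase. They either lacked MIP6 (mip6Δ, labelled mip6D), which codes for an RNA-binding protein, or were wild type (WT). Flasks of each strain stayed at 30 °C (time 0) or were shifted to 39 °C, where they were held for 20 min or for 120 min.

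The series labels 19 H4K12ac libraries, and the list does not name the libraries merged into it. Of the labelled libraries, 11 came from mip6Δ cells (4 at time 0, 3 at 20 min, 4 at 120 min) and 8 from WT cells (3, 1 and 4 at those times). The list gives the start and end of 1970 regions on 16 chromosomes, with no height, depth, p-value, library or replicate. No strain or time could therefore be set against another, no value below has a replicate error, and none was tested. The 24 RNA-seq and 24 total H4 ChIP-seq samples were not analysed here, and the list cannot show whether the labelled deletion is present. In the merge, peaks that overlap in any library become 1 region, so its length may exceed that of every peak merged into it.

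Glycogen is a branched polymer of glucose that budding yeast stores as it leaves rapid growth or meets stress. Glycogenin primes the polymer, glycogen synthase lengthens it from UDP-glucose and a branching enzyme sets the side chains. Glycogen phosphorylase and a debranching enzyme take it apart. Synthase is active when dephosphorylated, and the phosphatase Glc7 is brought to it by targeting subunits. Several of these genes are known targets of Msn2 and Msn4, stress factors that bind the stress response element (STRE). Acetylation of H4 at lysine 12 is a mark of active promoters.

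Regions covered the start of 9 of the 10 genes, where 89.9% of all protein-coding genes had their start in a region. The gene start is the first base of the coding sequence, since the annotation gives coding ends. Regions reached at least 1 base of the promoter, the 500 bp upstream of the start, in 9 of 10 genes (92.4% of all genes), and filled it in 8 of 10 (79.7% of all genes). These shares lie near those of all genes, and near the 92.6, 95.1 and 82.0% found for start, promoter touched and promoter filled in the 5613 genes more than 30 kb from a chromosome end, where all 10 genes lie. GAC1 was the gene with neither, and GSY1 the gene whose promoter was filled in part. From start to end, 6 of 10 genes lay wholly in a region, against 55.0% of all genes and 56.8% of those away from chromosome ends. All 5 genes of synthesis were among these 6, together with PIG2, and neither gene of breakdown was.

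**Figure D1:**
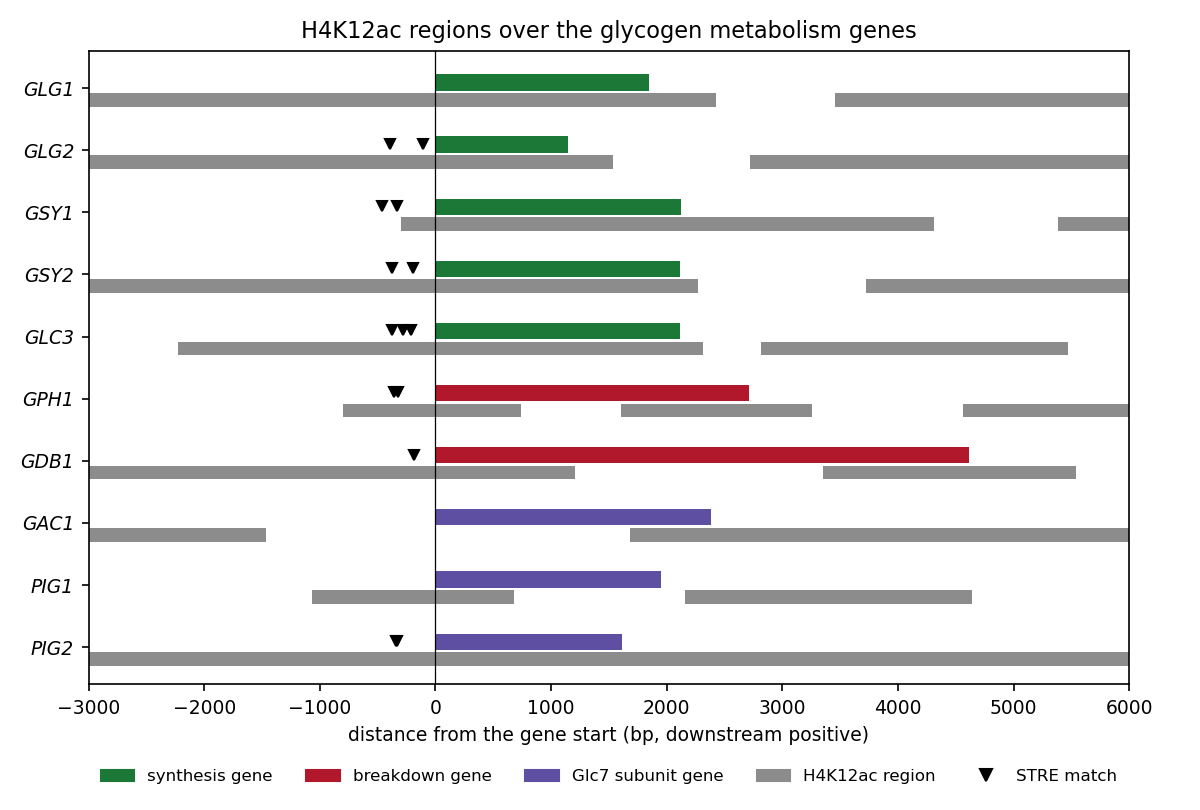
H4K12ac regions (grey bars) below each of the 10 genes (coloured bars, from gene start to gene end), with distance from the gene start in bp on the horizontal axis, downstream to the right. Genes of synthesis stand at the top, then breakdown, then Glc7 subunits. Triangles mark STRE matches in the 500 bp upstream of the start. The grey bar of GSY1 begins 296 bp upstream of its start, so that both of its triangles lie outside it, GPH1 and GDB1 each have a gap within the gene, and the start of GAC1 lies in a gap.

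The stretches of promoter with STRE matches are shown first, because the position of the region edge against them differed between GSY1 and the other genes. The letters searched were CCCCT on both strands, so AGGGG is the match on the other strand, in the 500 bp upstream of each start. A match is a description of letters and not a bound site. In the 7 genes with a match, 6 held more than 1 match. Each stretch runs 5′ to 3′ along the strand of its gene, and capitals mark the matches.
GSY1, chrVI:176704-176873, minus strand: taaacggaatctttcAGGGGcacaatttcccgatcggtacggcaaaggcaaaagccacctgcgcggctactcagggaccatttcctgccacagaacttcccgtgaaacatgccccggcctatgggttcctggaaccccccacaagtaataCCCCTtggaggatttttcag
GSY2, chrXII:660324-660539, plus strand: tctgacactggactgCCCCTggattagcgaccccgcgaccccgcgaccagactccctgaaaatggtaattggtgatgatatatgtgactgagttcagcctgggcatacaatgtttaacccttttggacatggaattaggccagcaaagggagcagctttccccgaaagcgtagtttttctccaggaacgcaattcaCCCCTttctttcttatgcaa
GLC3, chrV:132731-132926, plus strand: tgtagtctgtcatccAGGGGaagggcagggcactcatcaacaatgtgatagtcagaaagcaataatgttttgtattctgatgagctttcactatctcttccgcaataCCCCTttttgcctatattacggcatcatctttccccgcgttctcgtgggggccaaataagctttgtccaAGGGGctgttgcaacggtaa
GPH1, chrXVI:860934-860999, plus strand: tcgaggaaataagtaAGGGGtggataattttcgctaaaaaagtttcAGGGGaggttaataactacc
GDB1, chrXVI:901837-901871, plus strand: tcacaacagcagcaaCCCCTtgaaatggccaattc
PIG2, chrIX:270800-270846, plus strand: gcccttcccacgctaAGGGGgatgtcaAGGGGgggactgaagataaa
The remaining gene with matches is GLG2, whose matches lie 392 to 396 bp and 103 to 107 bp upstream of its start. The nearer match, at 156230 to 156234, lies within YJL136W-A (156169 to 156252), a neighbouring gene transcribed away from GLG2.

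At least 1 match stood in the promoter of 7 of 10 genes, where 34.1% of the 6000 promoters of full length held at least 1. At least 2 matches stood in 6 of 10, where 8.13% of promoters held at least 2. GLG1, GAC1 and PIG1 had no match in this window, which says only that these letters are not in it. The heat shock element, searched on both strands as the triplets GAA, TTC and GAA with 2 free bases between neighbours, was in the promoter of 0 of 10 genes, with 1.48% of all promoters holding at least 1 and 0.300% at least 2. The letters TATAAA on both strands were in 7 of 10 promoters and in 60.5% of all, and at least 2 matches were in 3 of 10 and in 26.4% of all.

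Of the 14 STRE matches in these promoters, 12 lay in a region and 2 did not, where 85.9% of the matches in all promoters lay in a region. Both matches outside a region belong to GSY1. All 10 TATAAA matches of these genes lay in a region, where 84.7% of the TATAAA matches in all promoters did. Over all genes the region at the start did not follow the number of STRE matches, since it was present at 89.3% of genes with 2 or more matches, 90.9% with 1 and 89.6% with none.

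Synthesis begins with glycogenin, which adds the first glucose units to itself. GLG1 (YKR058W, chromosome XI, 552770 to 554620) lies wholly in a region of 8076 bp from 547123 to 555198. That region is longer than most, at percentile 91.8 of all regions, and also holds the starts of DYN1, RHO4, TRM2, RPS21A and TIF1. GLG2 (YJL137C, chromosome X, 154985 to 156127), the paralog of GLG1, lies wholly in a region of 4785 bp from 154592 to 159376, which also holds the starts of TIF2, YJL136W-A, RPS21B and LCB3. The surroundings of both genes are alike, with a gene for ribosomal protein S21 upstream and a gene for translation initiation factor eIF4A (TIF1 or TIF2) downstream.

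Both glycogenin regions ended shortly after they entered the eIF4A gene. The region of GLG1 covered the first 212 of 1188 bases of TIF1 (YKR059W), or 17.8%. The region of GLG2 covered the first 100 of 1188 bases of TIF2 (YJL138C), or 8.42%. In these paralogs the region therefore stopped 578 bp past the end of GLG1 and 393 bp past the end of GLG2. The first 240 bases of each eIF4A gene are shown because the edges fall within them, with the bases in a region in capitals.
TIF1, chrXI:554987-555226, plus strand: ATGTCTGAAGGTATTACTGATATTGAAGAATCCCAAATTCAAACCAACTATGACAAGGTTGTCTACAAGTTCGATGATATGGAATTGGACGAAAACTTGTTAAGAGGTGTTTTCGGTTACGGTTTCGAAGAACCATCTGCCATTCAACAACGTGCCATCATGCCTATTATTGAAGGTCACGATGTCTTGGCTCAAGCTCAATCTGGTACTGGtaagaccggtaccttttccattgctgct
TIF2, chrX:154452-154691, minus strand: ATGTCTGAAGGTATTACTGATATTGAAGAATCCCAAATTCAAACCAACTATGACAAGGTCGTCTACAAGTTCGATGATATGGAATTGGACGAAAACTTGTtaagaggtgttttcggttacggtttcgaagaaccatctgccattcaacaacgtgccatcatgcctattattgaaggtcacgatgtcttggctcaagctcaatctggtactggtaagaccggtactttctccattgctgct
These stretches differ at 3 of 240 bases, and the whole genes at 6 of 1188. Of the 50-mers that start in TIF1 or TIF2, 81.4% occur more than 1 time in the genome, and the repeated stretch begins at the first base of each gene. None of the 50-mers that start in GLG1 or GLG2 is repeated. The part of this repeated sequence in the position of the region edges was not tested.

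Glycogen synthase is coded by GSY1 and by GSY2, which gives the main form of the enzyme. GSY1 (YFR015C, chromosome VI, 174265 to 176391) lies in a region of 4610 bp from 172078 to 176687. Its edge lay 296 bp upstream of the start, so that 59.2% of the promoter and 29.6% of the 1000 bp upstream were covered. An edge within the promoter with the start covered was found at 10.2% of all genes and, among these 10, at GSY1 alone. Downstream the region went 2187 bp past the end of the gene and took in the whole of CMK1, a calmodulin-dependent kinase gene.

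The 80 bases around the upstream edge of GSY1 are shown because its nearer STRE match, CCCCT at 328 to 332 bp upstream, falls just outside it, with bases in the region in capitals.
GSY1 edge, chrVI:176648-176727, minus strand: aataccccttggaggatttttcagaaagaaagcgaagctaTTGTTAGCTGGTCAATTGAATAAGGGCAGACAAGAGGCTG
The next region upstream began 2891 bp further and holds the start of AIP5, and 22.1% of the 1954 gaps between regions are at least as long. In this gap, at least 86 of the 50-mers that start there are repeated in the genome, and 0 of those that start in the promoter of GSY1 are. The end of the gap far from GSY1 was not searched for repeats. The part of these repeats in the gap was not tested. The TATAAA match of GSY1, 166 to 171 bp upstream, lay inside the region.

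GSY2 (YLR258W, chromosome XII, 660716 to 662833) lies in a region of 6118 bp from 656871 to 662988. In contrast to its paralog, the whole 1000 bp upstream of GSY2 was covered, as the edge lay 3845 bp upstream, and both of its STRE matches were inside the region. The downstream edge lay 155 bp past the end of the gene, and the convergent neighbour HSP60, a mitochondrial chaperonin gene, was not reached. The region holds 1 other gene start, that of YLR257W.

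GLC3 (YEL011W, chromosome V, 133120 to 135234) codes for the branching enzyme. It lies in a region of 4544 bp from 130891 to 135434 with the start of UBC8, a ubiquitin-conjugating enzyme gene of the same direction. The edges lay 2229 bp upstream of the start and 200 bp past the end. Its promoter held 3 STRE matches, the most among these genes, and all 3 were in the region.

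Breakdown runs through glycogen phosphorylase, which releases glucose 1-phosphate. GPH1 (YPR160W, chromosome XVI, 861306 to 864014) had its start in a region of 1539 bp from 860507 to 862045. This is the shortest region that holds a start of these genes, at percentile 18.3 of all regions, and it holds no other gene start. A gap of 863 bp then followed from 862046 to 862908, and a further region of 1657 bp from 862909 to 864565 covered the last 1106 bases of the gene. That further region holds no start of a protein-coding gene, which is so for 3.50% of all regions, and lies over the facing ends of GPH1 and SGV1, a cyclin-dependent kinase gene. Regions covered 68.1% of GPH1.

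GDB1 (YPR184W, chromosome XVI, 902044 to 906654) codes for the debranching enzyme and at 4611 bp is the longest of these genes. Its start lies in a region of 4499 bp from 898750 to 903248, shared with SEC23, SMX3 and DPM1. That region covered the first 1205 bases of the gene. After a gap of 2144 bp, a region of 2191 bp from 905393 to 907583 covered the last 1262 bases and held the start of ATG13, an autophagy gene downstream. Regions covered 53.5% of GDB1.

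Both genes of breakdown were thus covered at each end with a gap between. This pattern was found in 2 of these 10 genes, in 9.88% of all genes and in 10.4% of those away from chromosome ends. Both are longer than 2500 bp, and 1.70% of genes of 2500 bp or more lay wholly in a region. The share of such long genes with this pattern was not computed. The bases at the inner edges of both gaps are shown, as no gene starts there, with bases in a region in capitals.
GPH1 gap start, chrXVI:862006-862085, plus strand: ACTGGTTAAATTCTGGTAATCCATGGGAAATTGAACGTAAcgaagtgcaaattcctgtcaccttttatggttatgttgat
GPH1 gap end, chrXVI:862869-862948, plus strand: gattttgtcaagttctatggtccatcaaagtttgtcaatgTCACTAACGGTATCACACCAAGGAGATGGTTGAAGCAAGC
GDB1 gap start, chrXVI:903209-903288, plus strand: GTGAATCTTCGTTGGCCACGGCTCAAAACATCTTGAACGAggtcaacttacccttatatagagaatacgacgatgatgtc
GDB1 gap end, chrXVI:905353-905432, plus strand: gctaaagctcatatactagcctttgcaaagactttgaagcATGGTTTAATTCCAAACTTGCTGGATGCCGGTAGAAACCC
GC content was 41.1% in the gap of GPH1 and 41.1% in that of GDB1, near the 40.3 and 41.5% of the whole genes. No 50-mer that starts in these gaps is repeated in the genome.

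Set side by side, the 5 genes of synthesis had a median covered share of 100%, against 60.8% for the 2 genes of breakdown, a difference of 39.2 percentage points. The groups did not overlap, with 100% in each gene of synthesis, against 53.5 and 68.1% in those of breakdown. Gene length differed between them in the same way, with 1143 to 2127 bp for synthesis and 2709 to 4611 bp for breakdown. Length moves with the covered share in all genes. Genes under 1000 bp, none of which is among the 10, lay wholly in a region in 86.7% of cases. Of 2767 genes of at least 1000 and under 2500 bp, 43.4% did and the median covered share was 75.9%. Of 825 genes of 2500 bp or more, 1.70% did and the median was 26.7%.

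Both genes of breakdown were therefore above the median of long genes in covered share. In the first 1000 bp alone, the covered share was 100% in all 5 genes of synthesis, against 74.0% in GPH1 and 100% in GDB1. The difference in medians was then 13.0 percentage points and rested on GPH1. Over all genes, the median for the first 1000 bp was 100% in genes of at least 1000 and under 2500 bp. It was 77.4% in genes of 2500 bp or more, near the share of GPH1. Synthesis and breakdown cannot be told apart from gene length in this list.

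**Figure D2:**
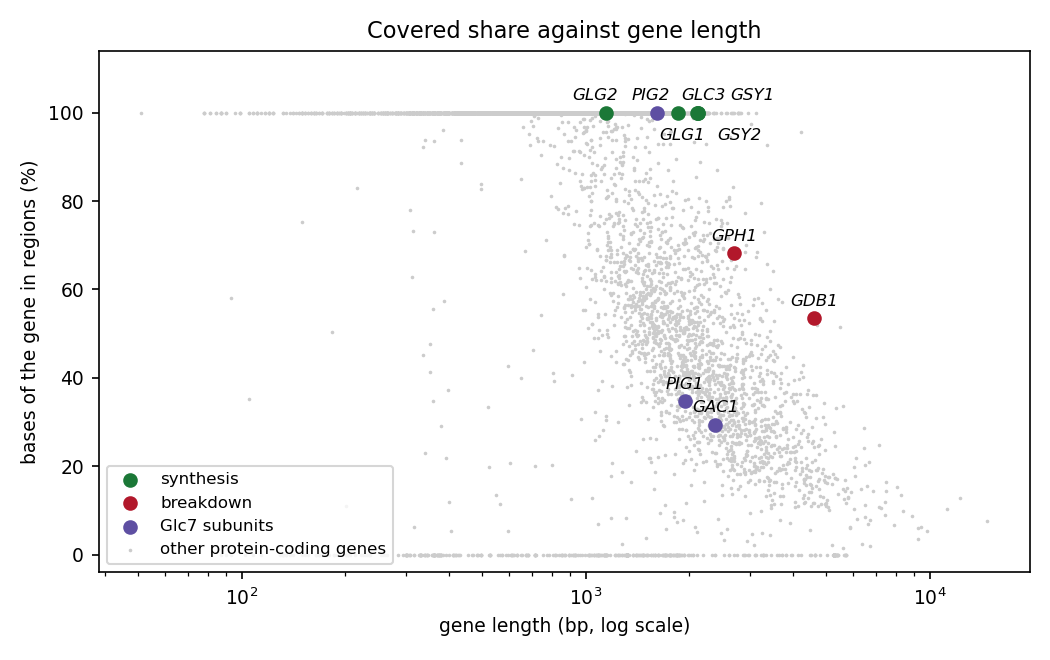
Share of each gene's bases in H4K12ac regions (percent) against gene length (bp, log scale), for the 10 genes (coloured points with names) and all other protein-coding genes (grey points). The 5 genes of synthesis and PIG2 lie at 100%, GPH1 and GDB1 at 68.1 and 53.5%, and PIG1 and GAC1 at 34.7 and 29.4%, and grey points fall with length.

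Covered shares of the 3 genes for Glc7 targeting subunits ranged from 29.4 to 100%, with a median of 34.7%. GAC1 (YOR178C, chromosome XV, 667860 to 670241) is the best known of these subunits for glycogen, and its protein brings Glc7 to glycogen synthase. Its start and its whole promoter lay in a gap of 3148 bp from 668560 to 671707, in which no other gene starts. The nearest region was 1467 bp upstream and holds the start of SYC1. Start and promoter were both free of regions in 7.58% of all genes, and in 4.90% of those at least 30 kb from a chromosome end, where GAC1 also lies. A nearest region as far from the start as at GAC1 was found in 3.60% of all genes and in 1.30% of those away from chromosome ends.

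GAC1 was not free of regions throughout. Its last 700 bases, or 29.4% of the gene, lay in a region of 7862 bp from 660698 to 668559, which holds the starts of ALE1, HEM15 and MPC54 downstream. The distance to the upstream gene was 1603 bp, the longest among these genes, where the median over all genes was 443 bp. GC content was 38.6% in the whole gap, which holds 1682 bases of GAC1 and the sequence upstream of it. The median over all genes, without the sequence between them, was 39.7%. In the promoter of GAC1 alone, GC content was 30.4%, the lowest among these genes, where the median over all promoters was 36.6%. No 50-mer starting in the gap is repeated. The parts of GC content and of distance between genes in this gap were not tested. The bases from 250 bp upstream of the start to the 50th base of GAC1 are shown because no base of them lies in a region, and all are in lower case as they hold no STRE match.
GAC1, chrXV:670192-670491, minus strand: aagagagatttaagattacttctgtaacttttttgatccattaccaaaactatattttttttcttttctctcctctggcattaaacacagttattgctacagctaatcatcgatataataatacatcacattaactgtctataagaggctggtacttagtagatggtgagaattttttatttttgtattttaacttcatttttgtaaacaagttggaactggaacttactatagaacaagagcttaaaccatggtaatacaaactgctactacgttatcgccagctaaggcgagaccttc

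PIG1 (YLR273C, chromosome XII, 689083 to 691029), the paralog of GAC1, differed from it at the start. Its start and whole promoter lay in a region of 1742 bp from 690354 to 692095. This region also holds the start of MCM5, a subunit gene of the replicative helicase, which is transcribed away from PIG1 and begins 526 bp from it. The region ended 675 bp downstream of the start of PIG1, and the rest of the gene was free, which left 34.7% of it covered. The gap of 1484 bp ran past the end of the gene, and 54.7% of all gaps are at least as long.

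PIG2 (YIL045W, chromosome IX, 271161 to 272777) lay at the other extreme. It sits within a region of 12945 bp from 266431 to 279375, at percentile 98.5 of all regions, with edges 4730 bp upstream and 8214 bp downstream of its start. That region holds the starts of 9 other genes, among them MET30, AGE2 and CBR1. Regions covered all of PIG2 and of its promoter, and both of its STRE matches.

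The 9 covered starts lay in 9 different regions, with 25 other gene starts in them. Region length had a median of 4610 bp, against 4818.5 bp for the regions at the covered starts of all genes. The upstream edge lay at a median of 3249 bp from the start, against 2216 bp in all genes, and the downstream edge at 2272 bp, against 1648 bp. Among the genes themselves the spread was wide, from 296 to 5647 bp upstream and from 675 to 8214 bp downstream. Of the 20 nearest neighbours, 19 had their start in a region, near the 89.9% of all genes. For 11 of the 20 this was the region that holds the start of the glycogen gene itself, so they are not separate observations. The exception was YPR159C-A, a short gene divergent from GPH1 whose start lay 92 bp outside the region of GPH1.

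Along the genes, each position examined between 250 bp before the start and 650 bp after it, in steps of 50 bp, was covered in 9 of 10. Over all genes, 89.8% were covered 50 bp before the start and 84.0% were covered 650 bp after it. At 1000 bp downstream 7 of 10 were covered, where 59.8% of all genes were. Upstream the order was the other way, with 6 of 10 covered at 1100 bp before the start, where 76.0% of all genes were. Neither order held along its whole side. At 1500 bp before the start 7 of 10 were covered, against 67.6% of all genes, and at 2500 bp downstream 5 of 10, against 59.5%. With 10 genes each position rests on few values, and position 1000 bp downstream lies beyond the end of shorter genes.

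**Figure D3:**
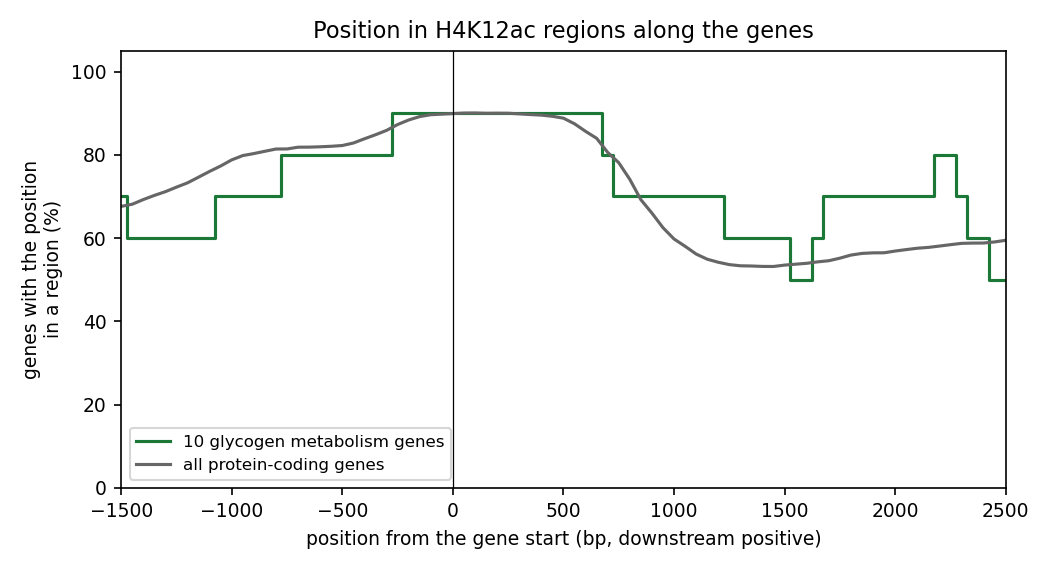
Share of genes (percent) whose position lies in an H4K12ac region, plotted against distance from the gene start in bp, from -1500 to 2500 in steps of 50, for the 10 glycogen metabolism genes (stepped line) and all protein-coding genes (smooth line). The lines run close together around the start and part on both sides, with 7 of 10 genes covered at 1000 bp downstream, where 59.8% of all genes are, and 6 of 10 at 1100 bp upstream, where 76.0% are. They also cross on each side, with 5 of 10 against 59.5% at 2500 bp downstream and 7 of 10 against 67.6% at 1500 bp upstream.

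A wider list of 17 genes that supply, control or bypass this pathway was described in the same way. Of these, 14 had their start in a region (89.9% of all genes) and 8 lay wholly in a region (55.0% of all genes). The genes of UDP-glucose supply differed among themselves. PGM1, coding for the minor phosphoglucomutase, and UGP1, coding for UDP-glucose pyrophosphorylase, were covered from end to end, while no base of PGM2, coding for the major phosphoglucomutase, was. The promoter of PGM2 was covered over 65.4%, and the nearest region lay 174 bp from its start.

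All 4 genes of the phosphatase and its partners had a covered start (89.9% of all genes) and a filled promoter (79.7% of all genes). GLC7 itself was covered over 52.5% of its length, and REG1, whose protein brings Glc7 to glucose repression, over 4.76%. REG1 is 3045 bp long, where the median covered share of genes of 2500 bp or more was 26.7%. GLC8 and GIP2, the paralog of PIG2, were covered from end to end. The region of GIP2 was 2549 bp long with no other gene start, against 12945 bp with 9 other starts for that of PIG2.

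All 8 kinase and cyclin genes had a covered start, where 89.9% of all genes had. The kinase gene PHO85 and its cyclin genes PCL6, PCL7 and PCL10 were covered from end to end, and PCL8 over 64.2%. The kinase coded by PHO85 is known to phosphorylate and so restrain glycogen synthase together with some, but not all, of its cyclins. Covered shares were lower in SNF1 (31.4%), which codes for a kinase of the AMP-activated protein kinase family, and in PSK1 (12.0%) and PSK2 (16.6%), PAS kinase genes.

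The start was free of regions in PGM2, SGA1 and IGD1. SGA1, a glucoamylase gene expressed in sporulation, had its nearest region 494 bp upstream and 48.7% of its bases covered. IGD1, which codes for an inhibitor of the debranching enzyme, had no base of gene or promoter in a region, and the nearest lay 1068 bp from its start.

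**Figure D4:**
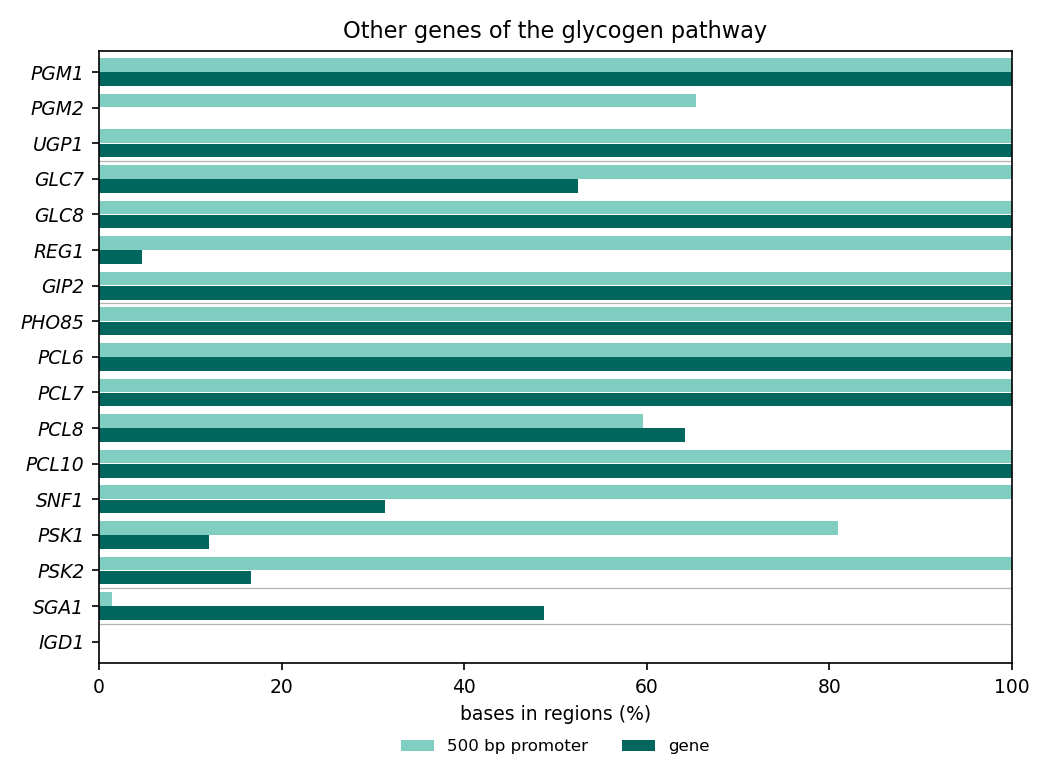
Share of bases in H4K12ac regions (percent) in the 500 bp promoter (light bars) and in the gene (dark bars) for the 17 genes of the wider list, with lines between UDP-glucose supply, phosphatase and partners, kinases and cyclins, glucoamylase and the debranching inhibitor. PGM2 has 0 in the gene, IGD1 has 0 in both, and all other genes have a dark bar, the lowest being REG1 at 4.76%.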

How the data were processed

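H4K12ac ChIP-seq was made from mip6Δ and WT cells. Adapter trimming (Cutadapt), mapping to sacCer3 (Bowtie2) and peak calling without the total H4 libraries (MACS2) were done by the authors, who then joined overlapping peaks of the samples into 1 list (bedtools merge, default settings). Versions are not given in the sources used here. The deposited list holds start and end positions in bp, and no level. Its score column is 0 throughout. No test was made.

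Region starts were counted from 1. All regions lie within the chromosomes of the RefSeq R64 reference, which is sacCer3 and gave genes and sequences. Covered shares were computed with Python 3.11.15 and NumPy 2.4.6, drawn with Matplotlib 3.10.9, and checked on simulated regions. Repeats were counted as 50-mers on either strand of the nuclear chromosomes.

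The genes named are the 10 members, their nearest neighbours, genes that start in the same regions and the wider list. TIF1, TIF2 and the length classes were examined after the regions were seen. Members and lists were chosen with earlier results of these data known. Columns of per-sample values left unused number 0.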

Additional observations from a re-analysis of the deposited data

How the results depend on the processing

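Of 43 values recomputed under other settings, 4 moved, each a covered share or a difference between shares that changed by over 10 percentage points. Counts of genes were judged otherwise, as the same within 1.5 times, which is a loose limit for 10 genes. Only the difference between synthesis and breakdown had a direction that could change, and it did not. Since all 5 genes of synthesis stood at 100%, the ceiling, a reversal was hardly possible, and this too says little of stability. Of the 14 values that concern median covered shares, 11 stayed at 100%, the ceiling, and say little of stability. The count of covered starts and that of promoters reached were each 8 or 9 under every setting run, and that of genes wholly covered 5 or 6. The lower counts came without the longest 5% of regions (98 regions, the shortest 9736 bp), since PIG2 lies in 1 of them, and, for promoters, also where the whole promoter had to be covered. The mean in place of the median gave a covered share of 78.6% for genes and 85.9% for promoters, and without the longest regions the median for genes was 84.1%. In the first 1000 bp alone, the difference between synthesis and breakdown was 13.0 percentage points, and this setting was chosen after seeing the data, as were the first 1000 bp for all members and a start taken 100 bp upstream. A higher peak cutoff could not be tried, as every score is 0. No paired analysis was possible because regions are not tied to a library or replicate number, which also meant that leaving out single libraries could not be done. A gene outside the list may carry the mark below the authors' threshold, and the depth behind each region is unknown.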

Other observations

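The genes for glycogen synthase 1 and for the inhibitor of the debranching enzyme lie near each other on chromosome VI, with AIP5 between them and their starts 6470 bp apart. GSY1 lay wholly in a region, IGD1 (YFR017C, 182274 to 182861) had no base in a region, and AIP5 was covered over 31.5% of its length with its start in a region from 179579 to 181730. GC content was 51.5% in IGD1 and 42.5% in GSY1, where the median over all genes was 39.7%, and its part in the missing region was not tested.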
